A study of Rattus norvegicus with 8 samples.

Results

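The aryl hydrocarbon receptor (AhR) complex is described here through the transcripts of 6 genes: the receptor itself (Ahr), its dimer partner (Arnt), that partner's paralog (Arnt2), and the chaperones of the unliganded receptor, p23 (Ptges3) and the cytosolic HSP90 proteins (Hsp90aa1 and Hsp90ab1). The members were taken by symbol, as every non-control spot whose gene name equals 1 of the 6. They make up 6 of 26269 gene names on the array and 11 of 30367 probes: 1 probe each for Ahr, Arnt and Ptges3, 2 for Arnt2, and 3 each for Hsp90aa1 and Hsp90ab1.

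Without ligand, AhR is held in the cytosol by HSP90 and p23, which keep it able to bind ligand. A ligand such as TCDD (2,3,7,8-tetrachlorodibenzo-p-dioxin) sends the receptor to the nucleus, where it exchanges the chaperones for ARNT, binds the xenobiotic response element and switches on genes such as Cyp1a1. ARNT2 is a paralog known mainly from neural tissue, where it pairs with other proteins of the same basic helix-loop-helix PAS family.

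RNA came from the pituitary of Wistar rats that were nursing, at postpartum day 7. The 8 samples were 4 labelled control and 4 labelled TCDD, and the labels used here state neither dose nor time of exposure, nor any genetic change. The labels name replicates without saying more about their origin, and a p-value therefore speaks of the spread among these samples, which may be technical. Each was hybridised to 1 single-colour Agilent array, and the number of arrays limits the precision.

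The 75th percentile of processed signal ranged from 765 to 932 over the arrays, with 71.1% to 73.9% of spots called well above background by the image software. Slide 1 held the 4 control arrays and slide 2 the 4 TCDD arrays, and no comparison here can separate slide from treatment: the slide and the group cannot be told apart. Of the markers checked, 7 of 7 hormone genes were well above background on all 8 arrays and 0 passed the test, while of the liver markers Alb was so on 0 arrays, and Apoa1 and Ttr each on 3 of 4 control and 2 of 4 TCDD arrays. Because the gland was sampled whole, fewer cells of a type and less RNA per cell cannot be told apart.

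Levels below are log2 of the processed signal minus the array's own 75th percentile, so that 0 is the 75th percentile of that array. A probe's brightness depends on its sequence, so levels are compared between groups for 1 probe and not between probes. Sequences are given for 5 of the 11 probes, to show which piece of the Ahr, Arnt and HSP90 transcripts the values stand for; each has a reading frame open over its 60 bases. Another 4 probes (1 each of Arnt2, Ptges3, Hsp90aa1 and Hsp90ab1) also have such a frame but may lie in a UTR, and those are given by position only. Positions are those of the array files (rn4), and exon or UTR annotation of that build was not used here. Probe A_64_P037843 read Ahr at chr6:54205172-54205231 on the minus strand, and probe A_43_P11561 read Arnt at chr2:190385287-190385346 on the plus strand. Probe A_44_P299870 read Hsp90aa1 at chr6:135415397-135415456, minus strand. For Hsp90ab1, A_64_P045716 lies at chr9:11037357-11037519 and A_64_P140020 at chr9:11038501-11038672, plus strand. The latter coordinates span 163 and 172 bases of genome for 60 bases of probe, so each of these crosses a splice junction and reads spliced RNA.
Ahr A_64_P037843: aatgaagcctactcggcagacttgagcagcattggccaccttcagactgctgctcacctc
Arnt A_43_P11561: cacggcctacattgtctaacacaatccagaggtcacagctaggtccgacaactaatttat
Hsp90aa1 A_44_P299870: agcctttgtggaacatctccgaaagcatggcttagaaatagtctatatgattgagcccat
Hsp90ab1 A_64_P045716: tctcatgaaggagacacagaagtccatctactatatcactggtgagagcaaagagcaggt
Hsp90ab1 A_64_P140020: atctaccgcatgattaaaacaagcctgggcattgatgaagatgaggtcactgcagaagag

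The receptor's own probe gave no level that could be told from background in either group, whereas Arnt2, Ptges3 and both HSP90 genes were measured on every array. Arnt sat at the detection limit. Of the 11 probes, 9 were well above background on all 8 arrays, and 10 could be tested. None of the 10 passed the test of TCDD against control (limma, Benjamini-Hochberg over 19950 probes), and 0 had an unadjusted p under 0.05, against 10.4% of all probes (2077 of 19950). Over all probes tested, 0.0451% passed (9 of 19950), so a count of 0 in 10 is near the background. The control and TCDD groups did not overlap for 0 of 10 member probes, against 6.88% of all probes (1373 of 19950). That count of 0 is also near the background. The members' log2 changes ran from -0.17 to 0.21 with a median of -0.049, beside a median of 0.021 over all probes.

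**Figure D1:**
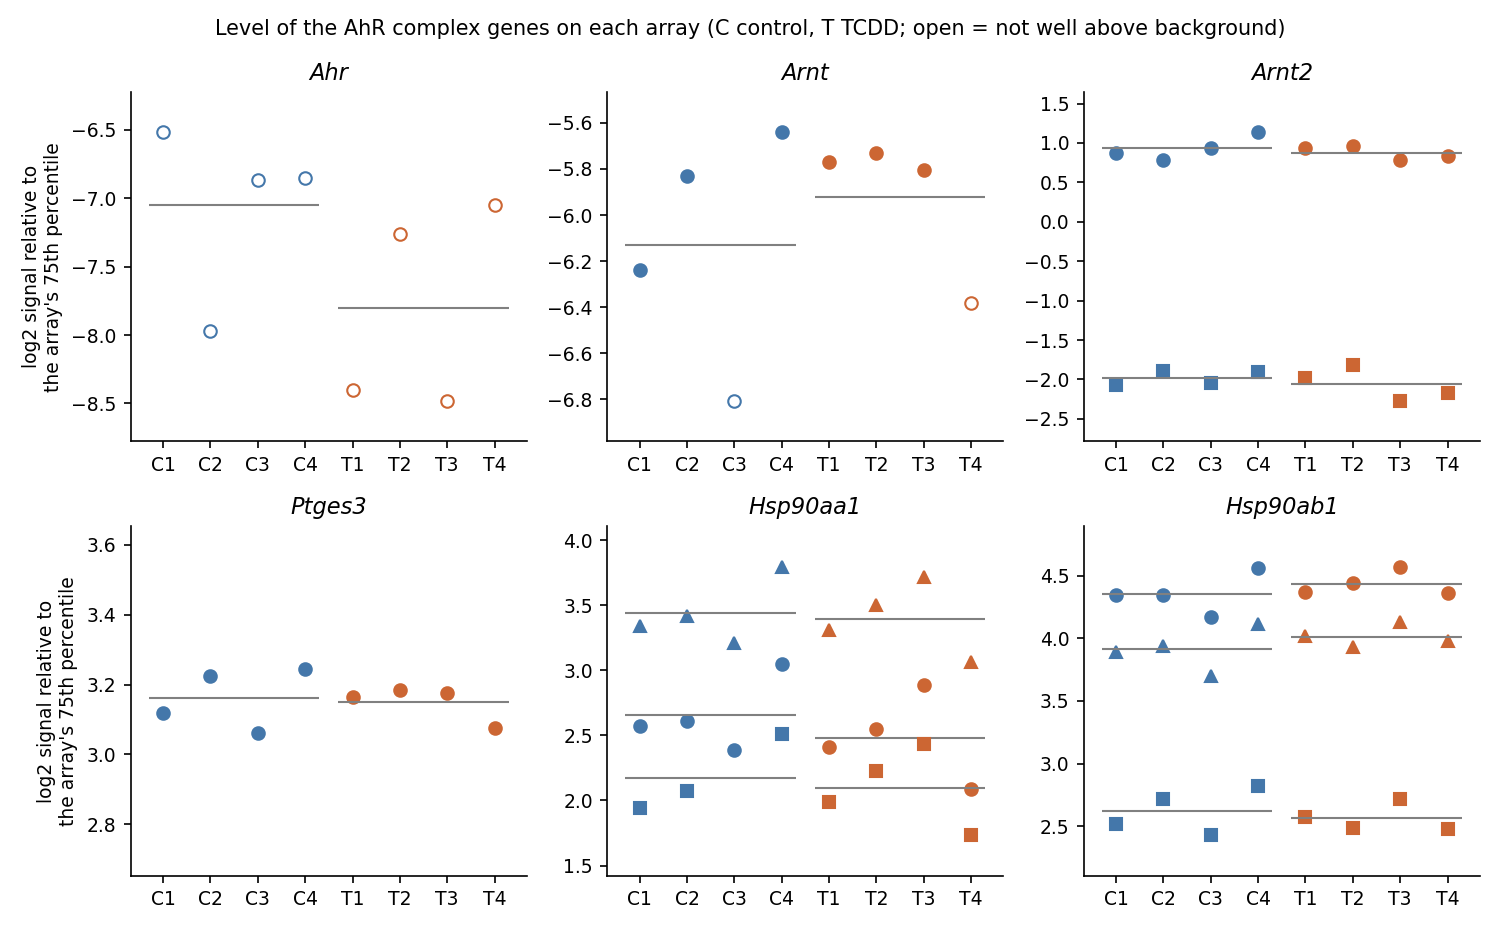
Log2 level of each member probe (y, relative to the array's 75th percentile) on the 4 control (C, blue) and 4 TCDD (T, orange) arrays. Marker shapes are probes of a gene, grey bars are group means, and open symbols mark arrays where the probe was not well above background, which holds for all 8 arrays of Ahr, 1 control and 1 TCDD array of Arnt, and no array of the other genes.

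Ahr encodes the ligand-binding subunit. Its processed signal was 10.2, 3.47, 7.37 and 6.97 in control replicates 1 to 4, and 2.48, 4.99, 2.30 and 6.76 in TCDD replicates 1 to 4. The values of the groups overlapped, and control replicate 1 was the highest. The probe was well above background on 0 of 8 arrays and lay below the brightest negative control spot of the same array on 8 of 8. On TCDD replicates 1 and 3 the value was a surrogate that the image software put in for a signal too dim to measure. No fold or test is given for it.

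A further probe, picked out after its values were seen, carries only a transcript cluster name (TC573854, A_64_P145433) but is described in the array files as matching the rat AhR precursor. It lies at chr6:54203947-54204006 on the same strand, 1165 bases from the Ahr probe. It was well above background on 8 of 8 arrays, with signals of 68.5, 105, 22.4 and 93.6 in controls and 69.1, 98.2, 61.2 and 106.8 in TCDD samples. Control replicate 3 was the lowest array by a wide margin, and the groups overlapped. The log2 change was 0.45 (SE 0.47, 95% CI -0.64 to 1.54), with an adjusted p of 0.81 by limma and an exact two-sided permutation p of 0.43 (4 against 4 arrays). Without control replicate 3 it was -0.036. The receptor was therefore read as not well above background by 1 probe and as present by another that is named only through its description.

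**Figure D2:**
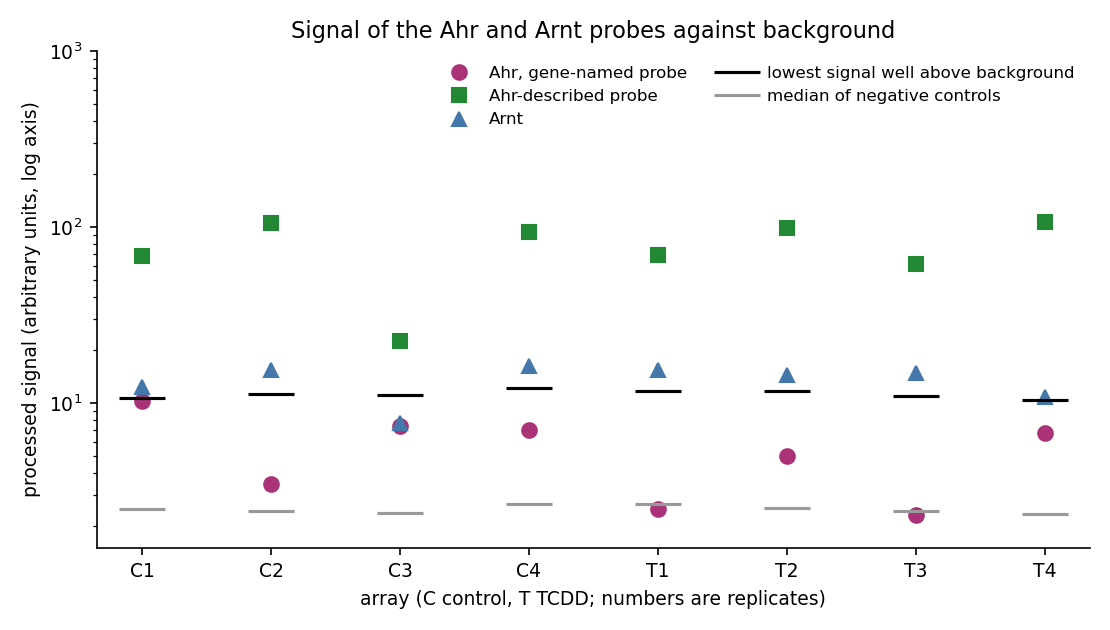
Processed signal (y, log axis, arbitrary units) of the gene-named Ahr probe, the probe described as AhR and the Arnt probe on each array, with the lowest signal called well above background (black dash) and the median negative control (grey dash). The gene-named Ahr probe stays under the black dash on all 8 arrays, Arnt lies around it at 0.692 to 1.37 times that signal, and the described probe lies at 2.02 to 10.3 times it.

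Arnt encodes the protein with which AhR binds DNA. Its signal was 12.3, 15.3, 7.67 and 16.1 in controls and 15.4, 14.4, 14.7 and 10.75 in TCDD samples. It was read as well above background on 3 of 4 arrays in each group (all but control replicate 3 and TCDD replicate 4), and those exceptions were also the lowest of their groups. The signal still lay below the brightest negative control spot of the same array on 7 of 8 arrays (4 of 4 control, 3 of 4 TCDD). The log2 level was -6.13 ± 0.52 (SD, n = 4) in controls and -5.92 ± 0.31 (SD, n = 4) in TCDD samples. The difference of 0.21 (SE 0.26, 95% CI -0.40 to 0.81) did not pass, with an adjusted p of 0.84 by limma and an exact permutation p of 0.63. As a ratio of TCDD to control the interval ran from 0.759 to 1.76. Near background the sign of this difference was not fixed: it was -0.018 without control replicate 3 and -0.062 after normexp correction and quantile normalization.

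Arnt2 was measured by 2 probes that lie 3816 bases apart on chromosome 1, minus strand, and each was well above background on 8 of 8 arrays. For A_44_P591370 (chr1:140535871-140535930) the log2 level was 0.88, 0.78, 0.94 and 1.14 in controls and 0.93, 0.97, 0.78 and 0.83 in TCDD samples. Control replicate 4 was highest, and the other 7 arrays lay together with the groups mixed. The change was -0.054 (SE 0.088, 95% CI -0.26 to 0.15, adjusted p 0.89 by limma, exact permutation p 0.57), which leaves a ratio between 0.837 and 1.11. It was 0.013 without control replicate 4. For A_64_P368731 (chr1:140539747-140539806) the levels were -2.06, -1.89, -2.04 and -1.90 in controls and -1.98, -1.82, -2.27 and -2.17 in TCDD samples. Both the highest and the lowest array of this probe were TCDD samples, replicates 2 and 3. The change was -0.085 (SE 0.11, adjusted p 0.84 by limma, exact permutation p 0.46), with a ratio between 0.796 and 1.12. Both Arnt2 probes thus gave a slightly negative difference, within its error.

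Ptges3 encodes p23, the small cochaperone that holds HSP90 in its closed, client-bound state. Its probe (A_64_P138625, chr7:1368673-1368732, plus strand) read 3.12, 3.22, 3.06 and 3.24 in controls and 3.16, 3.18, 3.18 and 3.07 in TCDD samples. The 8 arrays spanned only 0.18 on the log2 scale, and the pooled SD within groups, 0.071, lay at the 11th percentile of all probes tested. The change was -0.013 (SE 0.064, 95% CI -0.16 to 0.14, adjusted p 0.97 by limma, exact permutation p 0.80). The ratio of TCDD to control was thus bounded between 0.894 and 1.099, the narrowest interval of any member. The sign of so small a change was not fixed: it was 0.0081, 0.015 and 0.013 without control replicate 2, control replicate 4 and TCDD replicate 4. The accessions listed for this probe include a transcript of the paralog Ptges3l1, so its signal may hold both. The paralog's own probe (A_44_P269865, chrX:63906628-63906687, minus strand) gave a change of 0.046 (SE 0.097, adjusted p 0.92 by limma).

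Hsp90aa1 encodes the stress-inducible HSP90 alpha. The accessions listed for each of its 3 probes include 2 other RefSeq transcripts without a matched gene symbol, so a signal may hold those too. The coordinates recorded for A_64_P023633 (chr6:135413606-135413619, minus strand) span only 14 bases of genome for 60 bases of probe. Probe A_64_P119852 (chr6:135413693-135413752) read 3.34, 3.42, 3.21 and 3.80 in controls and 3.31, 3.50, 3.72 and 3.06 in TCDD samples, and A_44_P299870 read 2.57, 2.61, 2.39 and 3.05 against 2.41, 2.55, 2.89 and 2.09. On A_64_P023633 the control 3 spot was marked as not uniform and was dropped, which left 1.94, 2.07 and 2.51 for control replicates 1, 2 and 4 against 1.99, 2.23, 2.43 and 1.73. Over the spots kept, all 3 probes put control replicate 4 highest, TCDD replicate 3 next and TCDD replicate 4 lowest. The TCDD group thus held both the lowest and the second highest array. On A_64_P023633 the dropped control replicate 3 spot had a lower processed signal than TCDD replicate 4 (2382.6 against 2979.95). The changes were -0.044 (SE 0.17), -0.17 (SE 0.19) and -0.080 (SE 0.20) in the same order, with adjusted p of 0.96, 0.82 and 0.93 by limma. Exact permutation p were 0.86, 0.40 and 0.77. Ratios of TCDD to control between 0.652 and 1.31 lay inside the interval of at least 1 of the probes. The pooled SD within groups was 0.27 to 0.31, at the 78th to 83rd percentile of all probes, so this member varied more between arrays than most. The sign of A_64_P119852 and of A_64_P023633 turned without control replicate 4, to 0.074 and 0.089, and without TCDD replicate 4, to 0.068 and 0.041. With the dropped spot kept, A_64_P023633 gave 0.096.

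Hsp90ab1 encodes the constitutive HSP90 beta. Probe A_64_P021862 (chr9:11038902-11038961) read 4.34, 4.35, 4.17 and 4.56 in controls and 4.37, 4.44, 4.57 and 4.36 in TCDD samples. The junction-crossing probe A_64_P140020 read 3.89, 3.94, 3.70 and 4.12 against 4.02, 3.93, 4.13 and 3.97, and the other, A_64_P045716, read 2.52, 2.71, 2.43 and 2.82 against 2.58, 2.48, 2.72 and 2.48. Control replicate 3 was the lowest array on all 3 probes, and control replicate 4 and TCDD replicate 3 were the highest pair on each. The probes disagreed in sign: the changes were 0.083 (SE 0.093), 0.10 (SE 0.095) and -0.057 (SE 0.10). Adjusted p were 0.82, 0.78 and 0.90 by limma, with exact permutation p of 0.31, 0.34 and 0.69. Without control replicate 4 the negative value was 0.010.

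**Figure D3:**
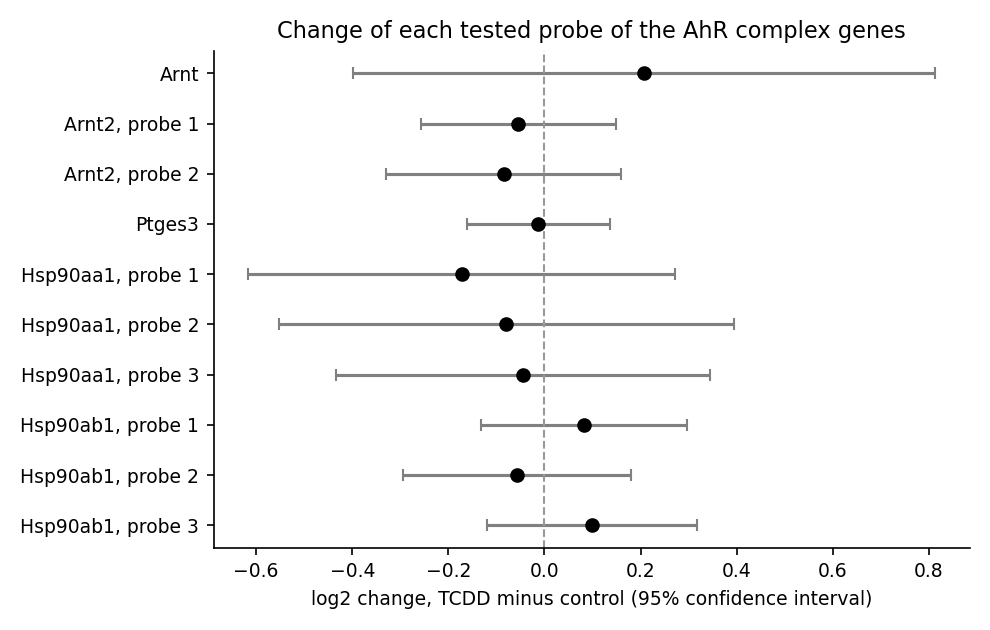
Log2 change, TCDD minus control (x), of each of the 10 member probes that could be tested, with its 95% confidence interval from limma (4 arrays a group, 3 controls for 1 Hsp90aa1 probe); probes of a gene are numbered in the order of their identifiers. Every interval includes 0, the widest is that of Arnt (-0.40 to 0.81) and the narrowest that of Ptges3 (-0.16 to 0.14).

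The chaperone members were also compared with each other across arrays. Over the brightest probe of each gene and 8 arrays, Hsp90aa1 correlated with Hsp90ab1 (Pearson r 0.82, exact permutation p 0.015; Spearman rho 0.71, p 0.058) and with Ptges3 (r 0.80, p 0.018; rho 0.86, p 0.011). None of the 6 pairs computed passed after Benjamini-Hochberg adjustment, with 0.053 as the smallest adjusted value for r and 0.064 for rho, both from exact tests. Without control replicate 4 and TCDD replicate 3 the r of Hsp90aa1 with Hsp90ab1 was 0.45 and with Ptges3 0.82. Hsp90ab1 and Ptges3 had r 0.69 (exact p 0.054), and the pairs with Arnt2 lay between 0.19 and 0.37. Without control replicates 2 and 4 the Arnt2 pairs had r of -0.24 with Hsp90aa1, -0.54 with Hsp90ab1 and 0.046 with Ptges3. Each slide held 4 arrays, too few for a correlation within a slide. With each group, and so each slide, centred on its own mean, Hsp90aa1 had r 0.91 with Hsp90ab1 and 0.80 with Ptges3. Hsp90ab1 with Ptges3 then had r 0.77, and the Arnt2 pairs lay between 0.27 and 0.36. The centred values were not tested.

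The same arrays stood high for some, not all, of the cochaperone genes, a pattern picked out after the values were seen and not tested. Hspa1b, an inducible HSP70 gene, read -3.42, -2.77, -2.89 and -0.77 in controls and -2.85, -1.56, -0.21 and -4.20 in TCDD samples. TCDD replicate 3 and control replicate 4 were again highest and TCDD replicate 4 lowest, and the pooled SD of 1.46 was above that of 99.8% of probes. Hsph1, an HSP110 gene, read -2.43, -2.16, -2.40 and -1.35 in controls and -2.41, -2.01, -1.31 and -2.47 in TCDD samples, with the same extremes. Chordc1, Ahsa2, Dnaja1 and Stip1, all of the HSP90 and HSP70 folding cycle, also had TCDD replicate 3 highest and control replicate 4 next. Dnajb1 and Hspb1, a small heat shock protein gene, had TCDD replicate 3 highest but not control replicate 4 next (TCDD replicate 2 and control replicate 2 instead). Of the 29 cochaperone genes tested, TCDD replicate 3 was highest in 13 and control replicate 4 in 6, against 15.7% and 17.6% of all probes. The count for control replicate 4 is near that background. Both slides hold 1 of these arrays, and their part in the members' values was not tested.

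**Figure D4:**
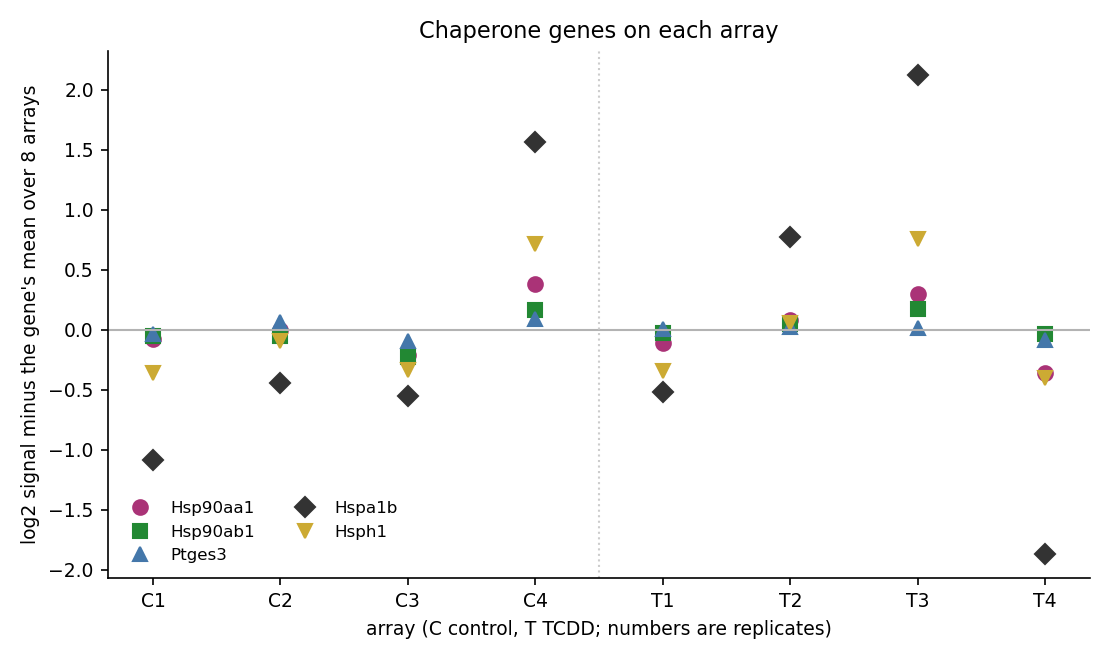
Log2 signal of Hsp90aa1, Hsp90ab1, Ptges3, Hspa1b and Hsph1 on each array (x; C control, T TCDD, numbers are replicates), each minus the gene's mean over the 8 arrays. All but Ptges3 are highest on control replicate 4 and TCDD replicate 3, 1 array of each group, and Hspa1b spans the widest range of the 5.

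Genes whose level followed a member most closely were found by the root mean square difference of centred log2 levels over 8 arrays, among 12153 genes. For Arnt2 this was Ipo7 (0.043), for Ptges3 Txnl4b (0.021) and Rragc (0.027), and for Hsp90ab1 Mrpl15 (0.032) and Wdr5 (0.037). For Hsp90aa1 they were Actr3b (0.068) and the gene now called Nsd3 (0.068), and for Arnt Kcnq1 (0.13) and Rhov (0.14). The members' own root mean square over the arrays was 0.062 for Ptges3, 0.11 for Arnt2, 0.12 for Hsp90ab1, 0.23 for Hsp90aa1 and 0.38 for Arnt. A flat member thus has small distances to other flat genes. Some gene is always the nearest, and these distances were not tested. Ahr was left out because its probe was not above background, and the Arnt values lay near the detection limit.

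Around the members, the lists of related genes gave 0 calls outside the AhR targets. Of the bHLH-PAS relatives and coactivators, 18 of 20 were on the array and 16 were tested, with 7 higher, 9 lower, 0 called and a median change of -0.034, which was 0.012 under normexp. Ahrr, the repressor that competes with AhR for ARNT and is itself an AhR target, was detected well above background on 0 of 4 controls and on 4 of 4 TCDD arrays. Its difference did not pass (adjusted p 0.22 by limma), it entered the test through the TCDD arrays alone, and the lower bound on the ratio was 1.68. Epas1, a hypoxia-inducible partner of ARNT, had a change of -0.29 (SE 0.13, adjusted p 0.51 by limma), Clock, the circadian partner of the related Bmal1, 0.21 (SE 0.10, adjusted p 0.54), and Ncoa1, a nuclear receptor coactivator, -0.13 (SE 0.076, adjusted p 0.60).

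Among the HSP90 cochaperones and the folding cycle, 29 of 31 were tested, with 17 higher, 12 lower, 0 called and a median of 0.017, which turned to -0.021 with median centring. Fkbp5, a steroid receptor cochaperone and glucocorticoid target, had the smallest p of the list with -0.35 (SE 0.16, adjusted p 0.50 by limma). Hspa4 had -0.15 (SE 0.091), Dnajb1 0.24 (SE 0.23) and Nudc -0.065 (SE 0.066), with adjusted p of 0.64, 0.78 and 0.79 by limma. The other HSP90 paralogs, endoplasmic Hsp90b1 and mitochondrial Trap1, had changes of 0.00044 (SE 0.14) and -0.13 (SE 0.058, adjusted p 0.49 by limma). In the list of nuclear transport and degradation, 9 of 10 were tested, 5 higher and 4 lower, with 0 called and a median of 0.040 that was -0.015 under normexp. Kpna2, an importin alpha, had 0.34 (SE 0.19, adjusted p 0.60 by limma), Ube2l3, a ubiquitin conjugating enzyme, 0.11 (SE 0.062, adjusted p 0.58), Src -0.16 (SE 0.10, adjusted p 0.65) and Xpo1, the export receptor, 0.087 (SE 0.073, adjusted p 0.74).

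The list of AhR targets held 2 calls. Of 10 listed, 9 were on the array and 8 tested, and the members that passed were Cyp1a1, at least 7.28-fold higher in TCDD samples, and Cyp1a2, at least 2.88-fold higher, each with an adjusted p of 0.034 by limma. Both enzymes oxidise AhR ligands. Each was called well above background on 0 of 4 controls and 4 of 4 TCDD arrays. Both therefore entered the test through the TCDD arrays alone, and a filter on all 8 arrays leaves them out. The calls were lost under quantile normalization, normexp, the authors' deposited table, no filter and the replicate block, with adjusted p of 0.052 to 0.37 by limma. Leaving out 1 array lost Cyp1a1 in 7 of 8 cases (all but TCDD replicate 3) and Cyp1a2 in 6 of 8 (all but TCDD replicates 3 and 4), with adjusted p up to 0.14 and 0.18 by limma. The 5 targets above background on all 8 arrays (Cyp1b1, Nqo1, Aldh3a1, Ugt1a6 and Nfe2l2) had 0 calls and a median change of 0.36, with 5 of 5 above 0, beside a median of 0.021 and 56.5% above 0 over all probes. Their changes ran from 0.032 for Ugt1a6 to 1.09 for Nqo1 (adjusted p 0.89 and 0.19 by limma). With median centring 7 of the 8 tested targets were above 0. The median over all 8 targets, 0.75 with Cyp1a1, Cyp1a2 and Ahrr at their bounds and 0.92 with them as fitted, includes 3 genes that the filter kept for their TCDD values.

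Means of some other cells' markers also lay apart between the groups, with 0 called. All 5 measured erythrocyte probes (6 of 7 listed genes, Hba-a1 and Hba-a2 sharing 1 probe) had higher means in TCDD samples, by 0.53 for Hbb up to 1.31 for Alas2 and 1.39 for Slc4a1, whose groups did not overlap (adjusted p 0.13 by limma). The log2 of their summed linear signals ran from 8.25 to 9.10 in controls and from 8.78 to 9.38 in TCDD samples. Such a sum mostly follows the brightest probes. Of 5 posterior lobe and neural markers 4 had lower means, from -0.12 for Oxt to -1.41 for Avp (adjusted p 0.90 and 0.43 by limma). Gfap went the other way, with a mean higher by 0.55 and groups that did not overlap. It was well above background on 0 of 4 control and 2 of 4 TCDD arrays and was not tested. The summed level of the 5 ran from 1.19 to 2.61 in controls and 1.17 to 1.87 in TCDD samples. Of 3 gonadotroph markers 2 had lower means, Fshb at -0.71 and Gnrhr at -0.52 (adjusted p 0.40 and 0.47 by limma). Lhb was at 0.049 (adjusted p 0.94 by limma). The log2 of the summed signals of the 3, which mostly follows the brightest, Lhb, ran from 5.37 to 6.06 in controls. In TCDD samples it ran from 5.66 to 5.93. The part of these cells in the members' and targets' values was not tested.

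**Figure D5:**
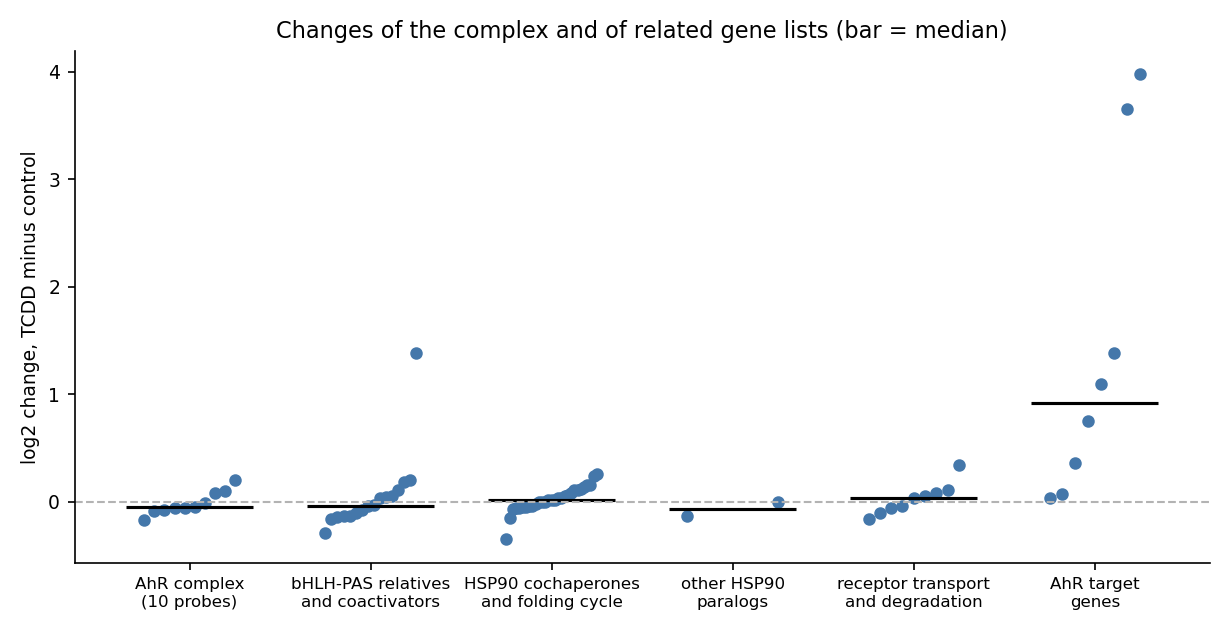
Log2 change, TCDD minus control (y), of the 10 tested member probes and of the tested genes of each related list, 1 probe per gene; bars are medians. The members lie between -0.17 and 0.21 and the target list has a fitted median of 0.92; the highest points, Cyp1a1, Cyp1a2 and Ahrr, are fitted values of genes not well above background in controls, so only their lower bounds given in the text can be read as folds.

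The promoters of the members were searched for the core of the xenobiotic response element, GCGTG, on both strands of the 250 bases before the RefSeq start (GRCr8). Promoters of 5 of the 6 members were in the table, all but Hsp90aa1. Ptges3 had 2 matches, Arnt 1, Hsp90ab1 1, and Ahr and Arnt2 0, while 25.9% of 33469 promoters held it. The longer letters TNGCGTG (which contain GCGTG), the E-box CACGTG and the heat shock letters GAANNTTC were in none of the 5 windows, and in 4.09%, 5.59% and 7.23% of all. The members' windows were 57.6% to 77.6% G and C, above the median of 51.2%. The Ptges3 window (chr7:1075059-1075308, plus strand, GRCr8) is shown because it holds the most matches, and the level of Ptges3 under TCDD is the most tightly bounded of the members. Capitals mark the match on either strand, GCGTG or its reverse CACGC.
Ptges3 promoter: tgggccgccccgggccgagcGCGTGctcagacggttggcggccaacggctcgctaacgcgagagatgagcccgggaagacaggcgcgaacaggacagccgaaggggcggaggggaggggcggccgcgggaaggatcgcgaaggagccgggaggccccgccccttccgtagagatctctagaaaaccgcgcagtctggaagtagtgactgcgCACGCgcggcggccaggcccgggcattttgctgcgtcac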

How the data were processed

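The members and gene lists were chosen with earlier results of these data known. Pituitary RNA of 8 samples (4 control, 4 TCDD, grouped by the labelled agent) was Cy3-labelled and put on 1-colour Agilent arrays, per the labels' protocols. The deposited intensities are linear processed signals made for each array on its own (background subtracted, dim spots given a surrogate) by the image software, named in the file headers as Agilent Feature Extraction 10.7.1.1, with probe positions on rn4. Precision is limited by the number of arrays. The authors' deposited table of intensities for the same arrays served as an alternative.

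The deposited processed signals were then turned into log2 values centred on the 75th percentile of the non-control spots of each array. Outlier spots were dropped and the log2 values of a probe's spots averaged. Probes well above background on 4 or more of 8 arrays were tested (19950 of 30367) in R 4.3.3 with limma 3.58.1 (lmFit, eBayes), with group as the only term, two-sided, at an adjusted p of 0.05 (Benjamini-Hochberg). The fit was tested on simulated data. Single probes were also tested by exact two-sided permutation of the arrays, over 70 assignments (smallest p 0.0286), or 35 where 1 spot was dropped. Where all arrays of a group were below background, a fold is a lower bound. There each dim array was given the array's lowest signal well above background, or the probe's signal where that was larger, and the bright group's mean was set against the mean of these.

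Named were all member probes, list genes that passed or else up to 4 by smallest p (1 probe per gene, the brightest), and the 2 genes most like each member, of which 1 is not reported here. In addition Hspa1b, Hsph1, Chordc1, Ahsa2, Dnaja1, Stip1, Hspb1, Ptges3l1 and the probe described as AhR were chosen after their values were seen. Fold changes of lists are from the same fit. Alternatives covered scaling, normexp (offset 50) with quantile normalization, the filter, outlier spots, the spot summary, 1 probe per gene, the variance model, array weights, a replicate block, and leaving out single arrays. Marker lists of pituitary, blood, stromal and liver cells gave 0 calls at this threshold. The report gives some of those whose means differed, not all of the largest (the liver marker Ttr differed by -1.29).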

Additional observations from a re-analysis of the deposited data

Results flagged for a closer look

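Arnt in TCDD replicate 4 stood apart from the other 3 TCDD arrays: the gap to its nearest neighbour made up 0.888 of the group's range, above Dixon's 95% critical value for 4 samples. Its signal there, 10.75, was not well above background. Ptges3l1 in TCDD replicate 3 stood apart in the same way, above the others of its group, with a ratio of 0.833. Of 25 groups tested, 2 stood out, and chance gives about 1 in 20, or 5%.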

How the results depend on the processing

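The count of member probes that passed was 0 under all 20 alternatives, with 0.51 as the smallest adjusted p (limma, Hsp90ab1 probe A_64_P140020 without control replicate 4). Of 194 values, 177 kept their direction and side of the threshold and 17 changed sign, all of them differences within their error. After normexp and quantile normalization the log2 change was -0.062 for Arnt, 0.0065 for Ptges3 and -0.0033 for Ptges3l1. For Hsp90aa1 probe A_64_P023633 it was 0.089 in the authors' deposited table, 0.096 with outlier spots kept and 0.055 with array weights, which also gave 0.037 for A_64_P119852 and 0.0081 for Arnt2 probe A_44_P591370. Leaving out 1 array at a time gave ranges of -0.018 to 0.37 for Arnt, -0.10 to 0.013 for Arnt2 probe A_44_P591370, -0.20 to 0.089 and -0.15 to 0.074 for Hsp90aa1 probes A_64_P023633 and A_64_P119852, -0.12 to 0.010 for Hsp90ab1 probe A_64_P045716, -0.046 to 0.015 for Ptges3, -0.016 to 0.12 for Ptges3l1 and -0.036 to 0.70 for the probe described as AhR. The other probes kept their sign, with ranges of -0.17 to -0.014 for Arnt2 probe A_64_P368731, -0.31 to -0.040 for Hsp90aa1 probe A_44_P299870, and 0.021 to 0.15 and 0.029 to 0.17 for Hsp90ab1 probes A_64_P021862 and A_64_P140020. The cause was not tested.

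Over all probes, 9 passed, against 1 with quantile normalization, 0 with normexp (2160 at an unadjusted p under 0.05, limma), 1 in the deposited table, 14 with 1 probe per gene, 3 with a variance trend and 28 with array weights. Without 1 array the count ran from 0 to 6, and it was 0 without control replicate 1, control replicate 3 or TCDD replicate 1. With the replicate block 0 passed (1697 at an unadjusted p under 0.05, limma). Same-numbered samples, taken as deviations from their group means, correlated at -0.039, -0.075, -0.033 and -0.093 over probes. No positive correlation by number was seen. Deviations within a group cancel out, so these values cannot settle whether the samples are paired, and the labels do not say. The gene-named Ahr probe was well above background on 0 of 8 arrays and the Arnt probe on 6 of 8. The probe described as AhR was so on 8 of 8, and the reason for this difference was not tested.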
